A study of Mus musculus with 12 samples.

Results

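Cultured mouse liver cells exposed to riociguat for 12 h were compared with cells exposed to its solvent DMSO for the same 12 h, with 3 libraries in each group. Riociguat is a drug that stimulates soluble guanylate cyclase. Both groups came from wild-type mice and were handled alike: the cells were kept for 12 h after isolation from the liver, the medium was changed, and riociguat or DMSO was added 12 h later. The cells are called HSCs in the labels, an abbreviation read here as hepatic stellate cells. The sources used here give neither age nor sex of the mice nor the dose of riociguat. They also leave unsaid whether replicates are separate animals or cultures, so p-values measure only the spread between these libraries, which may be technical. The comparison used all genes that passed a low-count filter, 16036 of 53452 in the table. The series also holds 3 libraries after 6 h and 3 after 24 h of riociguat, and this pair is the one in which treated and control cells had equal exposure times.

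Stellate cells are the pericytes of the liver sinusoid. In health they store retinoids, and in culture or injury they become contractile, matrix-producing cells. Soluble guanylate cyclase is the receptor of nitric oxide and makes cyclic GMP, which activates the protein kinase encoded by Prkg1 and is broken down by phosphodiesterases. In smooth muscle and pericytes this pathway lowers calcium release and relaxes the cell, and it shares phosphodiesterases with the cyclic AMP pathway.

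At 12 h, 907 genes differed between the groups (5.66% of those tested), of which 349 rose (2.18%) and 558 fell (3.48%), by edgeR's quasi-likelihood test at a Benjamini-Hochberg adjusted p under 0.05. Most differences were small. The median log2 fold change was 0.333 among risen and -0.324 among fallen genes, 15 genes rose and 37 fell by at least 1 on the log2 scale, and 265 of the risen and 419 of the fallen moved by less than 0.5. Every library of one group lay above every library of the other for 345 of the risen and 557 of the fallen genes, a pattern found in 22.4% of all genes tested. Lack of overlap stated below for single genes thus holds for nearly all called genes. It was also required of genes named for the size of their change. Over all genes the median log2 fold change was 0.0025. Of the 907 genes, 534 belonged to none of the 94 lists and families used. Values after ± are standard errors for log2 fold changes, and levels are CPM (counts scaled to a common library size with TMM factors) given in replicate order.

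**Figure D1:**
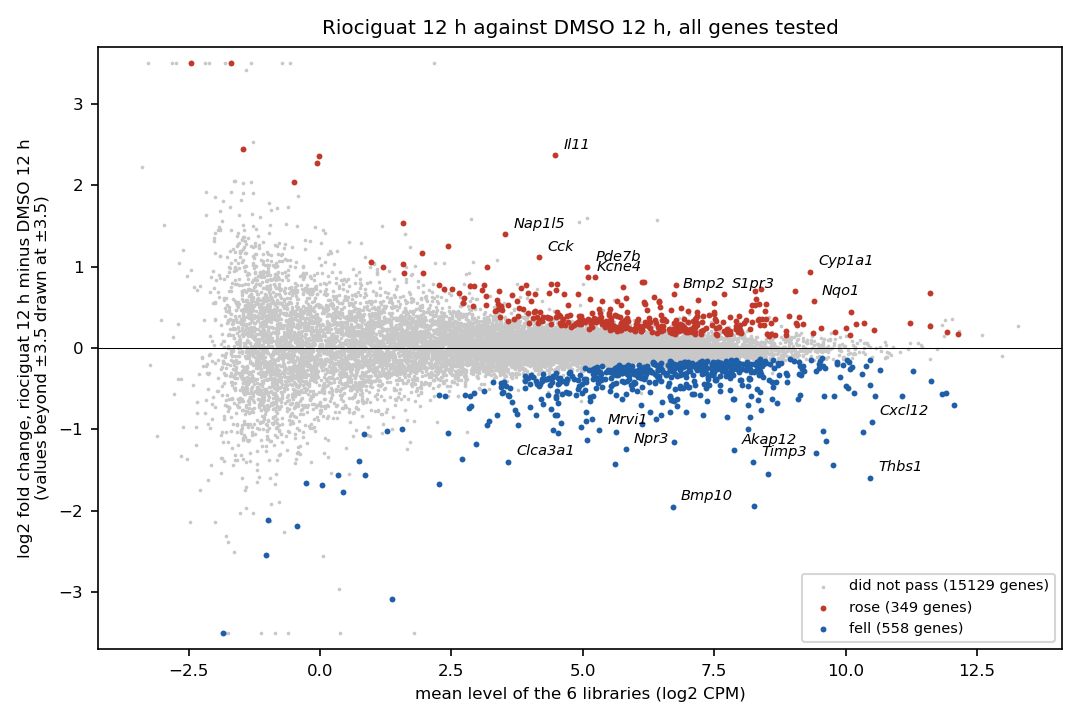
Each point is 1 gene, with its mean level over the 6 libraries on the x axis (log2 CPM) and its log2 fold change, riociguat 12 h minus DMSO 12 h, on the y axis; genes at 0 in all 6 libraries are not drawn. Genes that rose (red) and fell (blue) lie mostly within 0.5 of 0, with Il11 at 2.37 and Bmp10 at -1.95 among those far from it.

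Library totals of the 6 libraries lay between 20061026 and 24104570 counts. DMSO replicate 1 differed from DMSO replicates 2 and 3. Genes of low GC content were relatively high in it, with a median deviation from the gene mean of 0.0972 on the log2 scale in the lowest of 10 bins of GC content, against -0.161 and -0.211 in DMSO replicates 2 and 3. In the riociguat libraries the same genes were at -0.0751, 0.0798 and 0.0466. Over all 12 libraries the lowest values were those of DMSO replicates 2 and 3. Leaving out DMSO replicate 1 thus keeps only these 2 as controls. Without DMSO replicate 1, 633 genes rose (3.84%) and 629 fell (3.82%), and 811 of the 907 genes were called again. With offsets adjusted for GC content, 440 rose (2.75%) and 601 fell (3.75%). The counts were lower without DMSO replicate 2 (204 rose and 360 fell), without DMSO replicate 3 (223 and 344) and without riociguat replicate 2 (211 and 299). No called gene changed its sign under any of the 13 alternatives, and 415 of the 907, 147 risen and 268 fallen, were called under all of them. For a gene whose call ended under an alternative, "adjusted p up to" gives the highest value over the 13, and libraries joined by "or" were left out 1 at a time. Calls that ended only with the replicate number as a block are named with the other effects of processing.

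**Figure D2:**
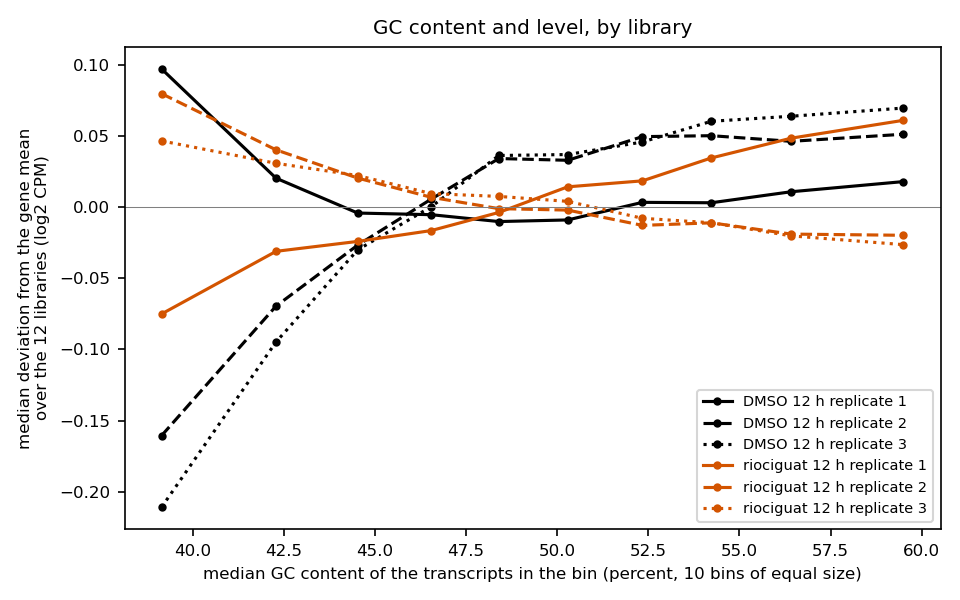
Lines are the 6 libraries, points are 10 bins of genes by transcript GC content (x axis, percent), and the y axis gives the median deviation of the bin's genes from their mean over the 12 libraries (log2 CPM). DMSO replicates 2 and 3 drop to -0.161 and -0.211 in the bin of lowest GC content, whereas DMSO replicate 1 is at 0.0972 there.

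The 12 stellate cell markers summed to between 3076 and 3146 CPM in DMSO and between 3268 and 3393 CPM with riociguat. Reln, whose levels are given further below, is a large part of this sum. Its mean rose by more CPM than the mean of the whole sum. All 12 were tested, and Lrat, the retinol-esterifying enzyme of quiescent stellate cells, was at 6.12, 5.60 and 2.71 CPM in DMSO and 5.91, 5.94 and 6.52 CPM with riociguat. Of the 12, Reln and Hgf rose and Des and Pdgfrb fell (33.3% called), with log2 fold changes of 0.22 ± 0.04, 0.34 ± 0.06, -0.45 ± 0.06 and -0.22 ± 0.06. Other liver cell types left markers too. The 15 endothelial markers summed to 2088 to 2199 CPM in DMSO and 1924 to 2068 CPM with riociguat, and the 15 hepatocyte markers to 1542 to 1629 and 1476 to 1815 CPM. The 14 tested macrophage markers, of 15, summed to 147 to 159 and 145 to 168 CPM. None of the 7 neutrophil markers was tested, and 6 of 12 lymphocyte markers were, at 5.57 CPM or less in sum. The endothelial markers Stab1 and Eng passed the test, with log2 fold changes of -0.20 ± 0.05 and -0.16 ± 0.04. The Stab1 call ended without DMSO replicate 1, 2 or 3 or riociguat replicate 2 or 3 (adjusted p up to 0.217) and the Eng call without DMSO replicate 2 or 3 or riociguat replicate 2 or 3 and in a fit of only these 6 libraries (adjusted p up to 0.253). The part of these cells in any result was not tested, and in bulk samples fewer cells of a type and less RNA per cell cannot be told apart.

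The subunit genes of the enzyme that riociguat acts on did not pass the test. Gucy1a1, its alpha subunit, was at 78.9, 69.1 and 60.8 CPM in DMSO and 69.6, 80.6 and 68.9 CPM with riociguat, and Gucy1b1, its beta subunit, at 69.7, 68.3 and 66.9 CPM in DMSO and 66.3, 67.6 and 65.2 CPM with riociguat. The libraries of the groups overlapped for both genes, with log2 fold changes of 0.07 ± 0.08 and -0.04 ± 0.06 (adjusted p = 0.738 and 0.794). Prkg1, the cyclic GMP-dependent kinase, had a log2 fold change of 0.06 ± 0.10, and Pde5a, the cyclic GMP-specific phosphodiesterase, of 0.03 ± 0.13, and neither passed the test (adjusted p = 0.826 and 0.954).

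In the list of guanylate cyclase and cyclic GMP pathway genes, 6 of the 29 tested members fell and 1 rose (24.1%, against 5.66% of all genes). The median was -0.046. Npr3 encodes the natriuretic peptide receptor that clears its ligands. It was at 81.97, 79.7 and 75.4 CPM in DMSO and 30.4, 32.3 and 37.8 CPM with riociguat, so that all riociguat libraries lay below all DMSO libraries, and it fell by 1.24 ± 0.08 on the log2 scale (adjusted p = 2.23e-08). Mrvi1, now named Irag1, encodes the kinase substrate that restrains calcium release from the inositol trisphosphate receptor. Its levels were 50.1, 55.6 and 54.03 CPM in DMSO and 25.1, 25.96 and 28.2 CPM with riociguat, again without overlap, a fall of 1.01 ± 0.08 (adjusted p = 1.43e-07). Itpr1, that calcium release channel, is counted among the calcium channel genes and not in this list. It fell by 0.38 ± 0.05, from 182, 184 and 198 to 139.8, 136 and 157 CPM. The kinase substrate Vasp, an actin polymerisation factor, fell by 0.39 ± 0.06. Not every fallen member of the list is named here. Pde3a, the cyclic AMP phosphodiesterase that cyclic GMP inhibits, fell by 0.26 ± 0.07, and Ppp1r12b, a subunit of myosin phosphatase, by 0.24 ± 0.05. Pde1a, a calmodulin-dependent phosphodiesterase of both nucleotides, rose from 48.7, 47.4 and 49.6 to 62.98, 67.2 and 67.7 CPM, by 0.44 ± 0.07. Ddah1 degrades an endogenous inhibitor of nitric oxide synthases and was named for the size of its change. Its levels were 62.5, 71.3 and 65.9 CPM in DMSO and 32.9, 30.99 and 33.7 CPM with riociguat, a fall of 1.04 ± 0.08 (adjusted p = 2.36e-07). Without DMSO replicate 2 or without riociguat replicate 2, 3 members of the list fell in place of 6. The Pde3a call ended without DMSO replicate 1 or 2 or riociguat replicate 1 or 2 (adjusted p up to 0.156), and the Ppp1r12b call without DMSO replicate 2 or riociguat replicate 2 (adjusted p up to 0.068).

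The cyclic AMP list had 5 risen and 5 fallen genes among 41 tested (24.4%, against 5.66% of all genes). Phosphodiesterases of cyclic AMP were among the risen. Pde7b was at 24.8, 21.9 and 21.2 CPM in DMSO and 45.99, 46.4 and 42.9 CPM with riociguat, a rise of 0.99 ± 0.08 (adjusted p = 2.01e-07), and Pde4b was at 61.7, 66.1 and 66.04 CPM in DMSO and 98.5, 101 and 99.8 CPM with riociguat, a rise of 0.63 ± 0.05 (adjusted p = 2.19e-07). For both, the lowest riociguat library was above the highest DMSO library. Pde4d rose by 0.48 ± 0.12, while Pde4a, of the same subfamily, fell by 0.38 ± 0.08 from 30.9, 31.4 and 34.1 to 25.9, 23.1 and 25.4 CPM. Crem, a transcription factor gene known to be induced through cyclic AMP response elements, rose by 0.70 ± 0.12, from 8.56, 6.99 and 8.67 to 11.9, 13.7 and 13.7 CPM. Subunits and inhibitors of protein kinase A moved in both directions. Prkar2b, a regulatory subunit, rose by 0.52 ± 0.05, its paralogue Prkar2a fell by 0.22 ± 0.05, and the kinase inhibitor gene Pkig fell by 0.38 ± 0.07. Akap12, a scaffold that anchors protein kinases A and C, had the largest change of the list. It went from 288, 351 and 347 CPM in DMSO to 142, 121 and 151 CPM, a fall of 1.25 ± 0.09 (adjusted p = 4.83e-08). The number of fallen members was 2 without DMSO replicate 3 or without riociguat replicate 2. The Pde4a call ended without DMSO replicate 3 or riociguat replicate 2 (adjusted p up to 0.0678), the Prkar2a call without DMSO replicate 3 or riociguat replicate 2 (adjusted p up to 0.11) and the Pde4d call without DMSO replicate 2 or riociguat replicate 1 or 2 (adjusted p up to 0.151).

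Of 39 tested potassium channel genes 4 rose and 1 fell (12.8%, against 5.66% of all genes), with a family median of -0.013. Kcnj8 encodes the pore and Abcc9 the sulfonylurea receptor of the ATP-sensitive potassium channel of vascular smooth muscle and pericytes. Kcnj8 was at 16.3, 18.4 and 15.5 CPM in DMSO and 30.98, 29.9 and 25.5 CPM with riociguat, a rise of 0.78 ± 0.11 (adjusted p = 0.000137). Abcc9, counted among the ABC transporters, was at 68.9, 64.7 and 61.8 CPM in DMSO and 79.3, 81.7 and 82.00 CPM with riociguat, a rise of 0.31 ± 0.05 (adjusted p = 0.000964). No riociguat library reached down to a DMSO library for either gene. Kcne4, an accessory subunit that damps voltage-gated channels, rose by 0.87 ± 0.09 from 24.02, 26.8 and 21.6 to 46.1, 44.9 and 41.9 CPM. The inward rectifiers Kcnj6 and Kcnj2 were low, with at most 6.92 and 2.91 CPM in any of the 6 libraries, and rose by 1.17 ± 0.26 and 1.05 ± 0.29. The Kcnj6 call ended without riociguat replicate 1 (adjusted p up to 0.134), and the Kcnj2 call without DMSO replicate 1 or 2 or riociguat replicate 1 or 3, with GC-adjusted offsets and in a fit of only these 6 libraries (adjusted p up to 0.195). Without riociguat replicate 1 the family thus had 2 risen genes and no fallen gene among 39. Kcnmb1, the beta subunit of the large-conductance calcium-activated channel and a smooth muscle gene, fell by 2.19 ± 0.60, a call that ended without DMSO replicate 2 or 3 or riociguat replicate 1, 2 or 3 (adjusted p up to 0.234).

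Among 26 tested calcium channel, pump and store genes, none rose and 2 fell (7.69%, against 5.66% of all genes), Itpr1 and the store calcium sensor Stim1 (-0.25 ± 0.05). In the family of TRP, Piezo and anoctamin channels, 2 of 20 rose and 1 fell (15%). Pkd2, a cation channel of cilia and the endoplasmic reticulum, rose by 0.45 ± 0.04 from 253, 247 and 248 to 342, 350.1 and 330.0 CPM, Trpc1 rose by 0.52 ± 0.11, and the mechanically gated channel Piezo1 fell by 0.21 ± 0.05. The Piezo1 call ended without DMSO replicate 2 or 3 or riociguat replicate 2 or 3 (adjusted p up to 0.135), and the Stim1 call without DMSO replicate 2 (adjusted p up to 0.0537). In the family of aquaporins and gap junction genes 2 of 15 tested rose and none fell (13.3%, against 5.66% of all genes). Both encode connexins, which form gap junctions between cells. Gja4 rose by 0.67 ± 0.12, from 14.4, 11.8 and 13.1 to 22.7, 17.4 and 22.3 CPM, and Gja1 by 0.33 ± 0.05, from 195, 168 and 176 to 217, 236 and 222 CPM.

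In the list of vasoactive receptors, with a few of their ligands and cofactors, 4 of 50 tested members rose and 7 fell (22.0%, against 5.66% of all genes). S1pr3, a receptor of sphingosine 1-phosphate, was at 157, 159.7 and 159 CPM in DMSO and 249, 253 and 251 CPM with riociguat, so the 6 libraries formed 2 tight groups, and it rose by 0.66 ± 0.04 (adjusted p = 5.44e-09). S1pr1, a receptor of the same lipid, fell by 0.26 ± 0.06, from 77.1, 78.3 and 78.8 to 67.8, 63.6 and 64.02 CPM, a call that ended without DMSO replicate 2 or 3 or riociguat replicate 2 or 3 (adjusted p up to 0.0895). Both endothelin receptors rose. Ednra was at 36.7, 34.7 and 44.1 CPM in DMSO and 53.7, 50.8 and 51.03 CPM with riociguat (0.43 ± 0.08, adjusted p = 0.00263), and Ednrb at 459, 402 and 394 CPM in DMSO and 539, 575 and 530.4 CPM with riociguat (0.39 ± 0.06, adjusted p = 0.000646). Ptger2, a receptor of prostaglandin E2 that couples to cyclic AMP production, rose by 0.60 ± 0.08, from 29.2, 28.3 and 25.95 to 41.3, 45.6 and 39.7 CPM. The alpha-1B adrenergic receptor gene Adra1b fell by 0.76 ± 0.14, from 13.1, 18.9 and 17.3 to 10.02, 10.2 and 8.94 CPM, and the serotonin receptor gene Htr2a fell by 0.44 ± 0.07. P2ry14, a receptor of UDP sugars, fell by 0.69 ± 0.11. Adm, which encodes the vasodilator peptide adrenomedullin, fell by 0.66 ± 0.06, from 109, 120.0 and 105 to 71.7, 70.98 and 68.1 CPM.

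Adora2a, an adenosine receptor that raises cyclic AMP, was at 27.5, 24.6 and 27.4 CPM in DMSO and 16.4, 13.7 and 17.1 CPM with riociguat, a fall of 0.75 ± 0.11 (adjusted p = 0.000181). Nt5e, the ectoenzyme that makes adenosine from AMP and a gene picked after its values were seen, was at 101, 121 and 122 CPM in DMSO and 62.8, 65.5 and 66.4 CPM with riociguat, a fall of 0.82 ± 0.07 (adjusted p = 4.98e-07). In both genes every riociguat library was below every DMSO library. In prostaglandin and leukotriene synthesis 3 of 19 genes rose and 1 fell (21.1%, against 5.66% of all genes). Ptgs1, the constitutive cyclooxygenase, rose by 0.42 ± 0.04, from 150.2, 153 and 159.6 to 206, 201 and 212 CPM. Ptges, a prostaglandin E synthase, rose by 0.31 ± 0.07 and the prostaglandin reductase gene Ptgr1 by 0.28 ± 0.07, while the thromboxane synthase gene Tbxas1 fell by 1.0 ± 0.25 at under 5 CPM. The Ptges call ended without DMSO replicate 2 or 3 or riociguat replicate 1 or 2 (adjusted p up to 0.0832), the Ptgr1 call without DMSO replicate 3 or riociguat replicate 1 or 3 (adjusted p up to 0.0961) and the Tbxas1 call without DMSO replicate 1 or 2 or riociguat replicate 1, 2 or 3 (adjusted p up to 0.0901). Without riociguat replicate 1, 1 gene of this list rose and none fell.

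Several genes were named for the size of their change. Cck, which encodes the peptide hormone cholecystokinin, was at 11.7, 12.3 and 10.1 CPM in DMSO and 26.4, 22.5 and 25.1 CPM with riociguat, a rise of 1.12 ± 0.11 (adjusted p = 2.45e-06). Tacr3, the receptor of neurokinin B, was lower in level, at 3.68, 2.44 and 3.49 CPM in DMSO and 7.41, 9.0 and 6.47 CPM with riociguat, and rose by 1.26 ± 0.19. Nap1l5, an imprinted gene related to nucleosome assembly proteins, was at 8.13, 6.11 and 4.79 CPM in DMSO and 17.9, 17.1 and 15.1 CPM with riociguat, a rise of 1.40 ± 0.15 (adjusted p = 7.04e-06). Genes named for the size of their change had to have groups that do not overlap, so the lack of overlap was fixed by that choice. The Nap1l5 level in DMSO replicate 1 was the highest of its group. Spon2, which encodes a secreted matrix protein, rose by 0.87 ± 0.09, from 27.9, 27.6 and 24.3 to 50.2, 50.8 and 45.1 CPM. Alpl, the tissue-nonspecific alkaline phosphatase, rose by 0.81 ± 0.08, from 50.96, 50.4 and 51.4 to 90.8, 91.99 and 85.1 CPM. Disp2, a relative of the hedgehog release factor dispatched, rose by 0.81 ± 0.07. On the fallen side, Clca3a1, of a family of secreted chloride channel regulators, went from 18.4, 16.8 and 16.6 to 6.29, 5.82 and 7.61 CPM (-1.40 ± 0.15), and the orphan receptor gene Gpr176 from 28.4, 28.5 and 29.2 to 16.5, 12.01 and 14.6 CPM (-1.0 ± 0.11).

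**Figure D3:**
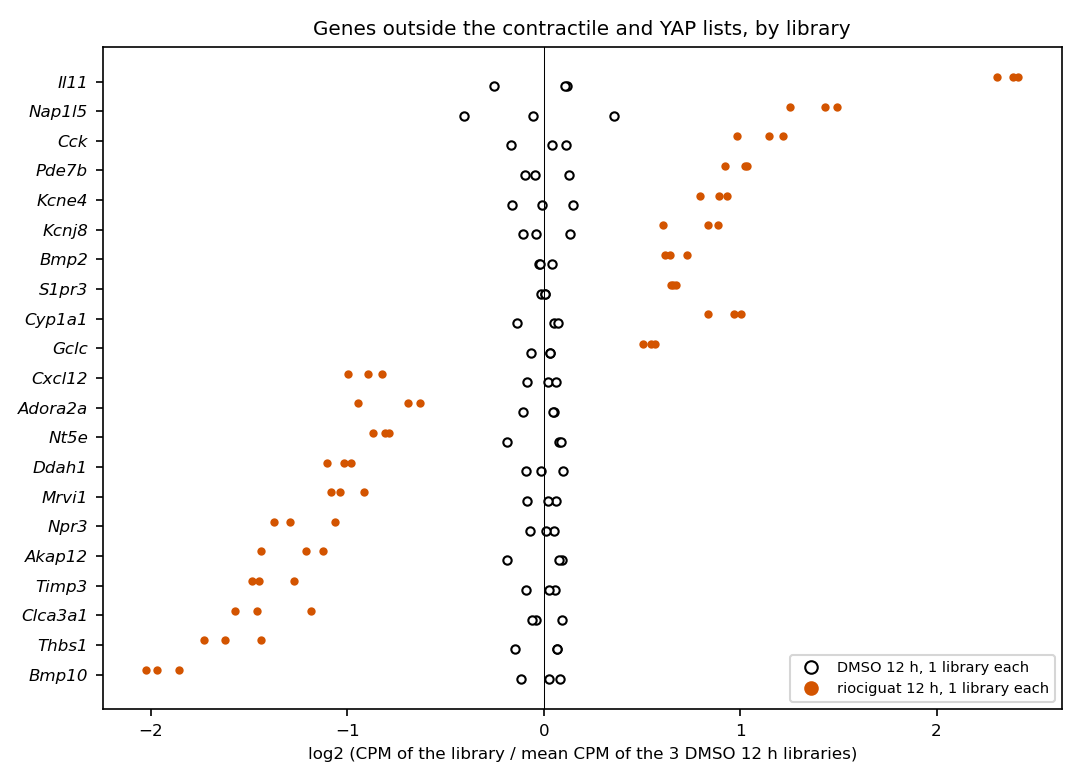
Points are single libraries of DMSO 12 h (open) and riociguat 12 h (filled) for 21 genes outside the contractile and YAP lists, on the x axis as log2 of the level over the DMSO mean. The groups do not overlap in any of the genes shown, which were picked for their changes.

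Among interleukins and gp130 cytokines 7 of 37 tested genes rose and 1 fell (21.6%, against 5.66% of all genes), with a median of 0.095. Il11, a cytokine of the gp130 family that acts on fibroblasts and stellate cells, had the largest rise among genes of at least 5 CPM. It was at 6.03, 7.79 and 7.75 CPM in DMSO and 38.4, 35.7 and 37.6 CPM with riociguat, a rise of 2.37 ± 0.11 (adjusted p = 6.67e-10), and the lowest riociguat library stood far above the highest DMSO library. Il6, of the same family, was at 2.58, 1.05 and 0.968 CPM in DMSO and 3.87, 4.62 and 4.79 CPM with riociguat, a rise of 1.53 ± 0.30 (adjusted p = 0.00345), with the highest DMSO level in replicate 1. Stat3, the transcription factor that gp130 receptors activate, rose by 0.17 ± 0.04, and Socs3, its feedback inhibitor, by 0.24 ± 0.07. Receptor genes rose by small steps, with Il4ra at 0.23 ± 0.04, Il1r1 at 0.22 ± 0.05 and Tnfrsf1a at 0.22 ± 0.05, and the coreceptor gene Il1rap fell by 0.29 ± 0.08. The number of risen members was 4 without DMSO replicate 2 or without riociguat replicate 3. The Stat3 call ended without DMSO replicate 2 or riociguat replicate 1 or 3 (adjusted p up to 0.118), the Socs3 call without DMSO replicate 2 or 3 or riociguat replicate 1, 2 or 3 and in a fit of only these 6 libraries (adjusted p up to 0.213), the Il1r1 call without DMSO replicate 2 or 3 or riociguat replicate 2 or 3 (adjusted p up to 0.0704) and the Il1rap call without DMSO replicate 2 or 3 or riociguat replicate 1, 2 or 3 (adjusted p up to 0.183).

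The promoter of Il11 holds 1 match to the AP-1 element TGACTCA, searched on both strands in the 250 bases before each start. In Il11 the element reads on the reverse strand. The window is shown because Il11 had the largest rise, and was chosen after its match was seen. Its sequence (RefSeq, GRCm38.p6, chr7:4778213-4778259, minus strand, read 5′ to 3′, with the match in capitals) is
Il11: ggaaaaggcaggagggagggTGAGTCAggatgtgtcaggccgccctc
Of 14818 promoters of tested genes 3.63% hold this element, against 5.93% of 337 promoters of risen genes and 5.57% of 574 promoters of fallen genes. A match describes the letters only.

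In the list of NF-kB subunits, inhibitors and targets 2 of 18 genes rose and 1 fell (16.7%, against 5.66% of all genes). The adhesion molecule gene Vcam1 rose by 0.33 ± 0.04, from 214, 216 and 212 to 268, 266 and 275 CPM, Tnfaip2 rose by 0.31 ± 0.06, and Tnfaip3, the ubiquitin-editing inhibitor of the pathway, fell by 0.28 ± 0.05. Chemokine ligands had 1 risen and 1 fallen gene among 24 (8.33%). Cxcl12, an abundant chemokine of stellate cells, was at 1767, 1904 and 1957 CPM in DMSO and 1007, 939 and 1059 CPM with riociguat, a fall of 0.91 ± 0.07 (adjusted p = 2.99e-07), and Cxcl14 rose by 0.46 ± 0.06. Without DMSO replicate 1, 3 of these ligands rose. Csf1, the growth factor of macrophages, fell by 0.28 ± 0.05 from 2586, 2763 and 2818 to 2333, 2053 and 2321 CPM. Hgf, the hepatocyte growth factor made by stellate cells, rose by 0.34 ± 0.06 and Vegfa by 0.28 ± 0.04. The interferon response list had 1 risen and 1 fallen gene of 34 (5.88%, against 5.66% of all genes). These were Iigp1 (0.78 ± 0.17) and Ifi47 (-0.59 ± 0.14), and the list had a median of 0.436. Its members summed to 772 CPM in riociguat replicate 3, against 448 and 454 CPM in replicates 1 and 2 and 435 to 464 CPM in DMSO. Without that library the median was -0.006 and no member was called. The call of Iigp1, an interferon-induced GTPase gene, ended without DMSO replicate 3 or riociguat replicate 3 (adjusted p up to 0.0734) and that of Ifi47 without DMSO replicate 2 or riociguat replicate 1, 2 or 3 and with no low-count filter (adjusted p up to 0.13), and without riociguat replicate 1 or 2, 3 members rose.

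Among BMP and activin ligands and antagonists 4 of 28 tested genes rose and 6 fell (35.7%, against 5.66% of all genes). Bmp10 was at 153, 169 and 176 CPM in DMSO and 40.9, 42.4 and 45.9 CPM with riociguat, a fall of 1.95 ± 0.09 (adjusted p = 6.67e-10). Gdf2, which encodes BMP9 and with BMP10 is a ligand of the receptor ALK1, moved the other way, at 45.1, 50.01 and 47.6 CPM in DMSO and 62.1, 58.9 and 57.00 CPM with riociguat, a rise of 0.32 ± 0.06 (adjusted p = 0.00165). Bmp2 was at 84.8, 81.1 and 81.4 CPM in DMSO and 137, 129 and 127 CPM with riociguat, a rise of 0.66 ± 0.05 (adjusted p = 2.19e-07). None of these 3 genes had overlapping groups. Bmp4 fell by 0.43 ± 0.11 and Gdf6 by 0.82 ± 0.14, while Gdf10 rose by 0.48 ± 0.09. Inhba, the activin A subunit, fell by 0.65 ± 0.11, from 149, 123 and 118 to 76.00, 81.5 and 91.4 CPM. The activin-binding follistatin-like gene Fstl3 (-0.39 ± 0.09) fell, as did Fstl1 (-0.25 ± 0.04), and Bambi, a decoy receptor of the family, rose by 0.41 ± 0.10. The Bambi call ended without DMSO replicate 2 or 3 or riociguat replicate 1 or 2 (adjusted p up to 0.139), the Bmp4 call without DMSO replicate 2 or 3 or riociguat replicate 2 or 3 and with no low-count filter (adjusted p up to 0.131) and the Fstl3 call without DMSO replicate 2 or 3 or riociguat replicate 3 (adjusted p up to 0.0846). Of 20 tested BMP receptors and SMAD target genes none rose and 1 fell, the coreceptor gene Eng, a share of 5.0% against 5.66% of all genes.

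In the list of TGF-beta ligands, receptors and targets 6 of 22 fell and none rose (27.3%, against 5.66% of all genes). The median was -0.135. Thbs1, whose product activates latent TGF-beta, was at 1922, 2228 and 2230 CPM in DMSO and 691, 640.2 and 785 CPM with riociguat, a fall of 1.59 ± 0.09 (adjusted p = 5.44e-09). Lrrc32, which encodes the latent TGF-beta anchor GARP, fell by 0.55 ± 0.05, from 379, 389 and 403 to 273, 259 and 270.0 CPM. The ligand genes Tgfb3 and Tgfb2 fell by 0.55 ± 0.10 and 0.59 ± 0.12, and the target gene Tgfbi by 0.29 ± 0.06, the last a call that ended without DMSO replicate 3 (adjusted p up to 0.066). For Thbs1 all riociguat libraries were below all DMSO libraries, with riociguat replicate 2 the lowest.

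Receptor tyrosine kinases fell in 6 of 34 tested genes and rose in none (17.6%, against 5.66% of all genes). Igf1r, the receptor of insulin-like growth factor 1, fell by 0.47 ± 0.07, from 135, 129.6 and 137 to 96.4, 91.3 and 102 CPM, and Mertk, a receptor for cell clearance, by 0.47 ± 0.08. Axl, of the same subfamily, fell by 0.26 ± 0.05 and Fgfr1 by 0.22 ± 0.05. Without riociguat replicate 2 the number was 2, and without DMSO replicate 3 it was 3. The Axl call ended without riociguat replicate 2 (adjusted p up to 0.058), and the Fgfr1 call without DMSO replicate 3 or riociguat replicate 2 (adjusted p up to 0.0662). Pdgfrb, the receptor by which stellate cells are driven to divide, had 232, 242 and 239 CPM in DMSO and 225, 183 and 206 CPM with riociguat (-0.22 ± 0.06, adjusted p = 0.048). This call ended without DMSO replicate 2 or 3 or riociguat replicate 2 or 3, with RLE factors, with GC-adjusted offsets and in a fit of only these 6 libraries (adjusted p up to 0.322).

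Collagen chains moved in both directions, with 4 of 32 tested chains risen and 7 fallen (34.4%, against 5.66% of all genes). The median was -0.022. The basement membrane chains Col4a1 and Col4a2, which assemble together, both fell. Col4a1 was at 2413, 2668 and 2688 CPM in DMSO and 1813, 1613 and 1757 CPM with riociguat (-0.58 ± 0.05, adjusted p = 1.12e-06) and Col4a2 at 1169, 1264 and 1255 CPM in DMSO and 900.1, 839 and 879 CPM with riociguat (-0.49 ± 0.04, adjusted p = 7.35e-07). The network-forming Col8a1 fell by 0.59 ± 0.10, and the fibrillar chain Col5a2 by 0.31 ± 0.05. Type VI collagen moved in both directions, since Col6a1 and Col6a2 rose by 0.31 ± 0.07 and 0.21 ± 0.05 and Col6a3 fell by 0.22 ± 0.04. Col3a1, the fibrillar chain of early scar, was at 324, 313 and 309.9 CPM in DMSO and 399, 405 and 353 CPM with riociguat, a rise of 0.29 ± 0.06 (adjusted p = 0.00544), and Col18a1, of basement membranes, rose by 0.31 ± 0.05. The Col6a2 call ended without DMSO replicate 2 or riociguat replicate 1 or 2 (adjusted p up to 0.0914). Of the chains of type I collagen, Col1a2 fell by 0.25 ± 0.07 (adjusted p = 0.028), a call that ended without DMSO replicate 2 or 3 or riociguat replicate 1, 2 or 3 (adjusted p up to 0.185). Col1a1 was at 352, 361 and 361 CPM in DMSO and 332, 288 and 302 CPM with riociguat, with a log2 fold change of -0.22 ± 0.07 that did not pass (adjusted p = 0.0878).

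Other structural matrix genes had 3 risen and 6 fallen members among 40 (22.5%, against 5.66% of all genes). Tnc, the tenascin of injured tissue, was at 977, 1033 and 1038 CPM in DMSO and 513, 454 and 532 CPM with riociguat (-1.02 ± 0.06), and Postn, periostin, at 26.1, 32.02 and 29.2 CPM in DMSO and 17.7, 14.6 and 17.1 CPM with riociguat (-0.83 ± 0.10). Both groups were apart in each gene. The basement membrane genes Nid2 and Hspg2 fell by 0.38 ± 0.08 and 0.20 ± 0.05, and Lama1 rose by 0.43 ± 0.07. The Nid2 call ended without riociguat replicate 2 (adjusted p up to 0.0897) and the Hspg2 call without DMSO replicate 3 or riociguat replicate 2 (adjusted p up to 0.136), and 3 members of the list fell without riociguat replicate 2. Tnxb, a tenascin that binds collagen fibrils, was at 255, 257 and 248 CPM in DMSO and 385, 361 and 355 CPM with riociguat (0.53 ± 0.05), and Spp1, osteopontin, at 282, 259 and 257 CPM in DMSO and 363, 414 and 380.0 CPM with riociguat (0.54 ± 0.06), both without overlap. Spp1 is also a marker of bile duct cells, whose 7 tested markers, of 8, summed to 760 to 819 CPM in DMSO and 867 to 982 CPM with riociguat. Without Spp1, a sum added after the data were seen, the other markers were at 537, 513 and 503 CPM in DMSO and 504, 568 and 546 CPM with riociguat, and the groups overlapped.

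Among proteoglycan and hyaluronan genes 3 of 41 rose and 7 fell (24.4%, against 5.66% of all genes). Chst11, a chondroitin sulfotransferase, fell by 0.60 ± 0.05, from 121, 122 and 123 to 79.3, 80.1 and 81.8 CPM, Ext1, a heparan sulfate polymerase, by 0.33 ± 0.05, and the leucine-rich proteoglycan gene Prelp by 0.34 ± 0.07. Cemip, which is needed to degrade hyaluronan, rose by 0.43 ± 0.07, and Cd44, a hyaluronan receptor, fell by 0.29 ± 0.06. Without riociguat replicate 1, 2 members rose and 3 fell. Without DMSO replicate 2 or riociguat replicate 2, 1 rose and 4 fell, and without DMSO replicate 3 or riociguat replicate 3, 1 rose and 5 fell. The Cd44 call ended without DMSO replicate 3 or riociguat replicate 1 (adjusted p up to 0.0619). Of 25 collagen-processing genes 6 fell and none rose (24.0%, against 5.66% of all genes). Tgm2, the crosslinking transglutaminase, fell by 0.42 ± 0.04, from 448, 475 and 471 to 340.0, 355 and 348 CPM, and Pcolce, an enhancer of procollagen cleavage, by 0.39 ± 0.06. The lysyl oxidase genes Loxl2 and Loxl4 fell by 0.23 ± 0.04 and 0.24 ± 0.05. Without DMSO replicate 3 or riociguat replicate 2 the number was 3, and the Loxl4 call ended (adjusted p up to 0.084).

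Among protease inhibitors and proteases most genes that passed had fallen. Timp3, an inhibitor of metalloproteinases that binds to the matrix, was at 412, 455 and 446 CPM in DMSO and 160.2, 156 and 181 CPM with riociguat, a fall of 1.40 ± 0.07 (adjusted p = 2.87e-09), and Timp2 fell by 0.29 ± 0.04. In the list of metalloproteinase inhibitors and plasminogen genes 6 of 21 fell and 1 rose (33.3%, against 5.66% of all genes). Plau, the urokinase gene, was at -0.32 ± 0.07 and F3, tissue factor, at -0.29 ± 0.05. The Plau call ended without DMSO replicate 3 or riociguat replicate 2 or 3 (adjusted p up to 0.0687). Procr, the endothelial protein C receptor, was the risen member, at 289, 309 and 299 CPM in DMSO and 381, 388 and 376 CPM with riociguat (0.35 ± 0.04). Adam19 fell by 0.82 ± 0.05 from 189, 205 and 203 to 114, 107 and 118 CPM, and Adam12 by 0.47 ± 0.06, both metalloproteases with a membrane anchor. Adamts14, a procollagen peptidase, fell by 0.51 ± 0.08. In all 5 of 32 tested ADAM and ADAMTS genes fell and none rose (15.6%, against 5.66% of all genes), or 3 without riociguat replicate 2. Of 19 tested matrix metalloproteinases 2 fell (10.5%, against 5.66% of all genes), Mmp10 (-0.79 ± 0.10) and Mmp13 (-0.53 ± 0.09). Prss23, a secreted serine protease, went from 142, 145 and 152 to 64.9, 62.1 and 70.3 CPM (-1.15 ± 0.06), without overlap.

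Contractile and actin genes fell in 25 of 35 tested members and rose in none, focal adhesion genes in 19 of 32 and none, and YAP and TEAD target genes in 14 of 22 with 1 risen. These shares stand against 3.48% of all genes fallen and 2.18% risen. The medians were -0.495, -0.378 and -0.277, against 0.0025 over all genes. With any 1 library left out, 22 to 25, 18 or 19, and 12 to 14 members fell. Acta2, alpha smooth muscle actin, went from 418, 525 and 508 to 122, 120.4 and 136 CPM (-1.94 ± 0.09), and Des, desmin, the intermediate filament of stellate cells, from 173, 208 and 191 to 145, 139 and 135 CPM (-0.45 ± 0.06). Ccn2, a matricellular protein and YAP target, went from 1142, 1332 and 1337 to 457, 427 and 521 CPM (-1.44 ± 0.09).

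The focal adhesion genes that fell include its integrin-proximal parts. Fermt2, kindlin 2, which activates integrins, was at 485, 526 and 511 CPM in DMSO and 309, 313 and 331 CPM with riociguat (-0.68 ± 0.04, adjusted p = 2.72e-08). Ilk, the integrin-linked kinase, was at 336, 353 and 370.5 CPM in DMSO and 238, 222 and 244 CPM with riociguat (-0.59 ± 0.05, adjusted p = 8.02e-07), and its partner genes Parva and Lims1 fell by 0.40 ± 0.04 and 0.39 ± 0.06. The groups were apart in both Fermt2 and Ilk. Lpp, an adhesion LIM protein, fell by 0.76 ± 0.05, and Tns1, tensin 1, by 0.58 ± 0.05. Of 24 tested integrins 4 fell and 1 rose (20.8%, against 5.66% of all genes). Itga1 fell by 0.34 ± 0.05 and Itga2 rose by 0.38 ± 0.07, both collagen receptor subunits. The number of fallen integrins was 1 without DMSO replicate 2 or 3 and without riociguat replicate 1 or 2. The Itgb1 call (-0.15 ± 0.04) ended without DMSO replicate 2 or 3 or riociguat replicate 1, 2 or 3 and with no low-count filter (adjusted p up to 0.182), and the Itga5 call (-0.19 ± 0.05) without DMSO replicate 2 or 3 or riociguat replicate 1 or 2, with GC-adjusted offsets and in a fit of only these 6 libraries (adjusted p up to 0.283).

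Promoters of 4 of these genes are shown because each holds a CArG box, the element bound by serum response factor, whose own gene Srf fell by 0.64 ± 0.07. They were picked among fallen genes after the matches were seen. The sequences are from RefSeq (GRCm38.p6), read 5′ to 3′ on the gene's strand, with the CArG box in capitals. The regions are chr10:79988524-79988573 (plus strand) for Cnn2, chr2:156775283-156775332 (plus) for Myl9, chr14:45530240-45530289 (minus) for Fermt2 and chr14:20929151-20929200 (plus) for Vcl.
Cnn2: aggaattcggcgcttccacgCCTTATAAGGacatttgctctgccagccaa
Myl9: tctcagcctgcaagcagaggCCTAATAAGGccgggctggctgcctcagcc
Fermt2: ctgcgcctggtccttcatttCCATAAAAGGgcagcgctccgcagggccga
Vcl: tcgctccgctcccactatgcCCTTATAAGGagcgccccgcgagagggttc
Cnn2, calponin 2, fell by 1.0 ± 0.06, Myl9, a myosin light chain, by 1.43 ± 0.10 and Vcl, vinculin, by 0.47 ± 0.05. On either strand within 250 bases before the start, a CArG box was found in 3.48% of 574 promoters of fallen genes, 1.78% of 337 promoters of risen genes, 1.19% of 14818 promoters of tested genes and 1.47% of all 32851 promoters. The TEAD element GGAATG was found in 15.5%, 10.7%, 11.2% and 12.6% of the same sets. These are descriptions of the letters in these windows.

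Genes of xenobiotic and antioxidant responses rose. Of the 11 genes of the aryl hydrocarbon receptor pathway 5 rose and none fell (45.5%, against 5.66% of all genes). The median was 0.577, and the count was 5 with any 1 library left out. Cyp1a1, the cytochrome most used to read this receptor, was at 399.8, 455 and 461 CPM in DMSO and 880.3, 784 and 857 CPM with riociguat (0.94 ± 0.05, adjusted p = 5.44e-09). Cyp1b1 was at 267, 216 and 223 CPM in DMSO and 367, 402 and 382 CPM with riociguat (0.71 ± 0.07, adjusted p = 4.03e-06). Tiparp and Ahrr, which repress the receptor, rose by 0.58 ± 0.07 and 0.77 ± 0.13. The groups did not overlap for either cytochrome.

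In the NRF2 and glutathione list 17 of 35 genes rose and none fell (48.6%, against 5.66% of all genes). The median was 0.175, and 14 to 17 rose with 1 library left out. Nqo1, the quinone reductase, which also stands in the receptor list above, was at 513, 544 and 557 CPM in DMSO and 834, 762 and 812 CPM with riociguat (0.58 ± 0.04, adjusted p = 2.19e-07). Gclc, the catalytic subunit for glutathione synthesis, was at 279, 299 and 298 CPM in DMSO and 433, 427 and 414 CPM with riociguat (0.54 ± 0.05, adjusted p = 5.78e-07), and its partner Gclm rose by 0.30 ± 0.04. Slc7a11, which imports cystine for glutathione, was at 460.2, 376 and 355 CPM in DMSO and 606, 661 and 671 CPM with riociguat (0.70 ± 0.09, adjusted p = 7.08e-05), with the highest DMSO level in replicate 1. Srxn1 and Prdx1, which handle peroxides, rose by 0.44 ± 0.05 and 0.27 ± 0.04. Nfe2l2, the gene of NRF2 itself, rose by 0.30 ± 0.04, from 339, 359 and 336 to 427, 427 and 420.5 CPM. Hmox1, heme oxygenase 1, was at 3380, 3728 and 3785 CPM in DMSO and 4306, 4041 and 4124 CPM with riociguat (0.20 ± 0.05), a call that ended without riociguat replicate 1 (adjusted p up to 0.158).

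Promoters of 3 of the risen genes are shown with their match to the antioxidant response element TGACNNNGC on either strand, in capitals. They were chosen after the matches were seen and come from RefSeq (GRCm38.p6), at chr2:75704875-75704913 (minus strand) for Nfe2l2, chr3:122245403-122245451 (plus) for Gclm and chr4:116685446-116685494 (plus) for Prdx1, read 5′ to 3′ on the gene's strand.
Nfe2l2: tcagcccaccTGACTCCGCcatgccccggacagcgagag
Gclm: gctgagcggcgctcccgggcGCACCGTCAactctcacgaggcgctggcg
Prdx1: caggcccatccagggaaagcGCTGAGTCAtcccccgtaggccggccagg
The element was in 15.7% of promoters of risen genes, 11.8% of fallen and 11.5% of tested genes. In Prdx1 the capitals also hold the letters of the AP-1 element. The xenobiotic response element TNGCGTG was in 5.64%, 7.67% and 6.13% of the same sets, and the cyclic AMP response element TGACGTCA in 2.08%, 1.74% and 2.44%.

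Some related detoxifying genes rose with them. Cytochromes P450 had 2 risen and 1 fallen gene among 53 (5.66%, against 5.66% of all genes). Among 18 aldehyde dehydrogenases 1 fell and none rose (5.56%). Of 24 glutathione transferases 5 rose and none fell (20.8%, against 5.66% of all genes), with Gsta4 at 0.38 ± 0.04 and Gstp1 at 0.31 ± 0.04. The number risen was 3 without DMSO replicate 2 or riociguat replicate 2 or 3. Sequences within this family are alike, so counts may be shared between members. The drug exporters Abcc4 and Abcc1 rose by 0.26 ± 0.04 and 0.15 ± 0.04. Of 39 ABC transporters 5 rose, the channel subunit gene Abcc9 among them, and none fell (12.8%, against 5.66% of all genes). The count was 3 without DMSO replicate 2 or 3 or riociguat replicate 2 or 3, and the Abcc1 call ended without DMSO replicate 1 or 2 or riociguat replicate 1 or 3 and in a fit of only these 6 libraries (adjusted p up to 0.202). In the heme and iron list 5 of 26 rose and none fell (19.2%, against 5.66% of all genes). Slc40a1, ferroportin, which exports iron, was at 152, 159 and 148 CPM in DMSO and 215, 201 and 209 CPM with riociguat (0.44 ± 0.05, adjusted p = 1.26e-05). Blvrb, a biliverdin reductase, rose by 0.24 ± 0.05, Fth1, ferritin heavy chain, by 0.18 ± 0.04 and the heme transporter gene Slc48a1 by 0.19 ± 0.04. Without riociguat replicate 1 the count was 3, and the Slc48a1 call ended (adjusted p up to 0.106). The metallothionein genes Mt1 and Mt2, named after their values were seen, rose by 0.39 ± 0.05 and 0.59 ± 0.09.

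Heat shock genes rose in 5 of 17 members (29.4%, against 5.66% of all genes), and none fell. With any 1 library left out, 4 rose. The inducible Hsp70 genes Hspa1a and Hspa1b, near-identical copies between which reads may be split, rose by 0.39 ± 0.06 and 0.35 ± 0.07, and Dnaja1, a cochaperone, by 0.27 ± 0.05. The unfolded protein and amino acid stress list had 3 risen and 1 fallen gene among 32 (12.5%, against 5.66% of all genes). Without DMSO replicate 1 the counts were 5 and 2. The fallen gene was Atf6 (-0.17 ± 0.04). Its call ended without DMSO replicate 2 or 3 or riociguat replicate 1 or 2 and with no low-count filter (adjusted p up to 0.127). Ddit4, an inhibitor of the mTOR pathway, rose by 0.54 ± 0.07 from 57.6, 59.3 and 59.7 to 95.1, 80.9 and 80.6 CPM and Asns, asparagine synthetase, by 0.30 ± 0.04. In fatty acid metabolism Fasn, fatty acid synthase, fell by 0.39 ± 0.05, while Acss2, which makes acetyl-CoA from acetate, rose by 0.53 ± 0.05 and Acsl4 by 0.56 ± 0.10. Mgll, the monoglyceride lipase of lipid droplets, fell by 0.87 ± 0.10 and Pdk4, the inhibitor of pyruvate dehydrogenase, by 0.60 ± 0.08. Of 25 tested retinoid genes 1 fell, Aldh1a1 (-0.30 ± 0.05), which makes retinoic acid, a share of 4.0%.

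The signalling feedback and cell cycle entry genes that passed mostly fell. Of 20 ERK feedback genes 5 fell and 1 rose, Spred1 (0.41 ± 0.09). This was a share of 30.0%, against 5.66% of all genes, with a median of -0.183. The Spred1 call ended without DMSO replicate 2 or 3 (adjusted p up to 0.0695). Spry1, sprouty 1, fell by 0.67 ± 0.11, from 27.5, 29.9 and 27.5 to 16.9, 16.7 and 19.8 CPM, Dusp10 by 0.48 ± 0.07 and Dusp6, the phosphatase of ERK, by 0.25 ± 0.05. In the list of AP-1 and EGR factors 3 of 18 genes fell and 1 rose (22.2%, against 5.66% of all genes). This list also holds Myc and Ier3, which belong to neither family. Fosl2 was at -0.35 ± 0.05, Myc at -0.28 ± 0.05, Egr1 at -0.20 ± 0.05 and Ier3 at 0.36 ± 0.05. The Egr1 call ended without DMSO replicate 2 or 3 or riociguat replicate 1, 2 or 3, with GC-adjusted offsets and in a fit of only these 6 libraries (adjusted p up to 0.221). Of 17 G1 cyclins and inhibitors 4 fell and none rose (23.5%, against 5.66% of all genes). Ccnd2 and Ccnd1, D-type cyclins, fell by 0.41 ± 0.05 and 0.50 ± 0.06, Cdk6 by 0.34 ± 0.07, and Cdkn1a, the inhibitor p21, by 0.22 ± 0.05. Of 27 p53 target genes 7 fell and none rose (25.9%, against 5.66% of all genes). Among the fallen were Plk2 (-0.69 ± 0.06), Mdm2 (-0.24 ± 0.04) and Btg2 (-0.28 ± 0.06). Without riociguat replicate 2, 2 of the cyclin list and 3 of the p53 list fell, and the calls of Cdk6 and Cdkn1a ended (adjusted p up to 0.0919 and 0.0703). Without DMSO replicate 2, 4 of the p53 list fell, and without DMSO replicate 1, 5 of the AP-1 and EGR list.

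Many processes had few or no calls at this time. No gene passed among 35 S phase genes, 21 circadian genes, 22 homeobox cluster genes, 22 claudins and tight junction genes, 87 nuclear respiratory chain genes, 13 keratins and 10 SOX factors. In the respiratory chain list 4 genes rose without DMSO replicate 1, and 1 without riociguat replicate 3 or with GC-adjusted offsets. Of 30 G2/M genes 1 fell, Anln (-0.39 ± 0.09), of 34 Wnt pathway genes 1 rose, Rspo3 (0.36 ± 0.05), and of 82 cytosolic ribosomal proteins 1 rose, Rpl10 (0.61 ± 0.16). These shares lie below the 5.66% of all genes with all libraries, but that of the ribosomal proteins did not under other settings: 9 rose with GC-adjusted offsets, where 2.75% of all genes rose, and 4 without riociguat replicate 3. The Anln call ended without DMSO replicate 3 or riociguat replicate 1 or 3 (adjusted p up to 0.0648) and the Rpl10 call without DMSO replicate 1, 2 or 3 or riociguat replicate 1 or 2 and with DESeq2 (adjusted p up to 0.18). The median log2 fold change was -0.058 for S phase and 0.071 for the nuclear respiratory chain. A gene that misses the threshold is not shown to be unchanged. Of 38 tested mesenchymal transcription factors 4 fell and none rose (10.5% called, against 5.66% of all genes), led by Foxs1 (-0.83 ± 0.17), and 1 fell without DMSO replicate 2 or without any 1 of the riociguat libraries, and 2 without DMSO replicate 3.

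**Figure D4:**
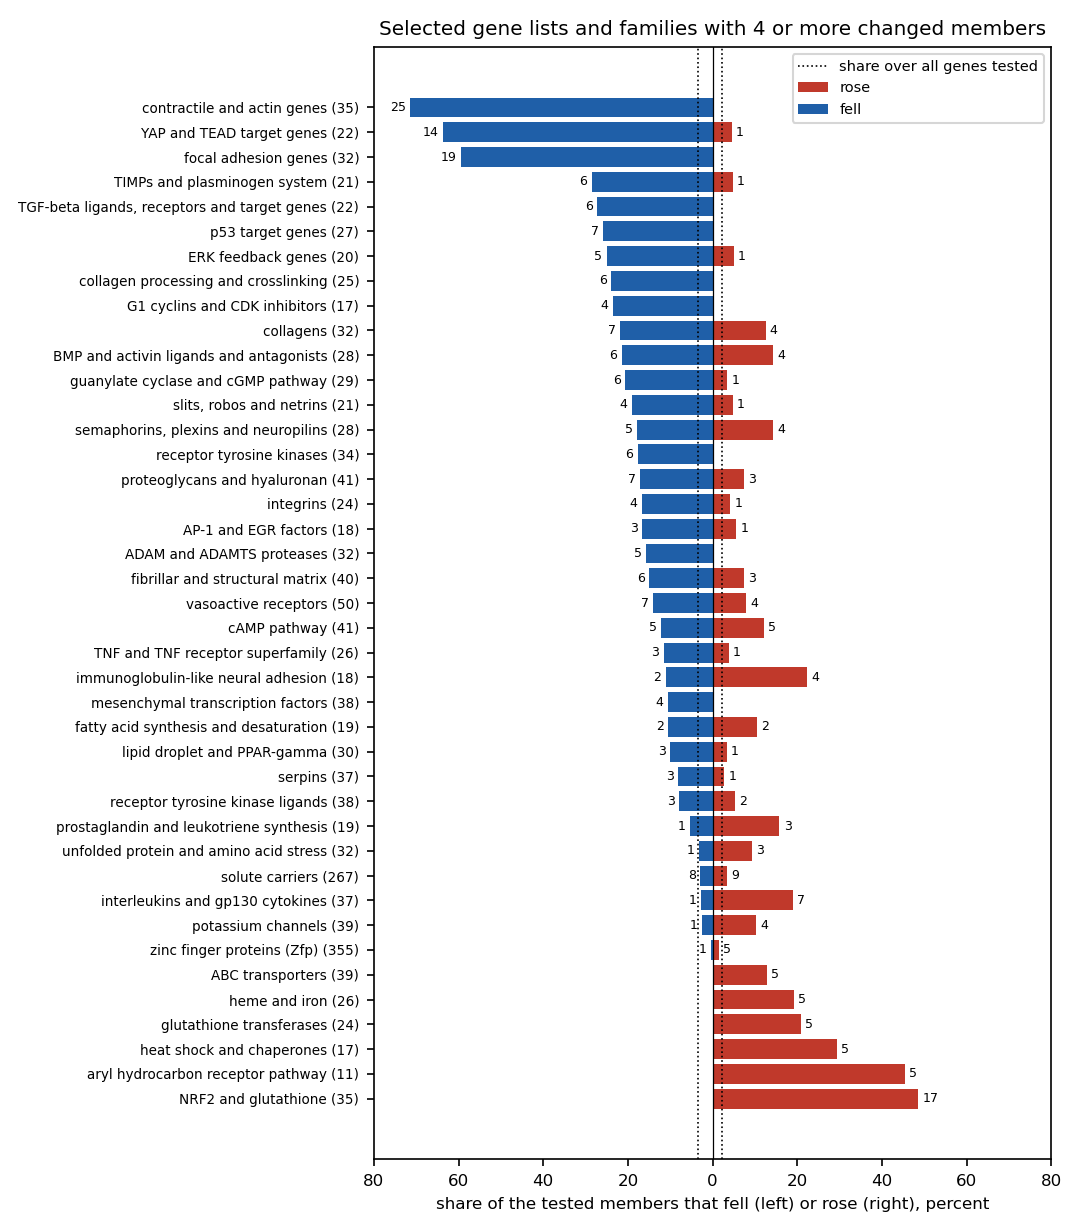
Bars give the percent of each list's tested members that fell (left, blue) or rose (right, red), with the number of such genes at the bar's end and the number tested in brackets; dotted lines mark 3.48% fallen and 2.18% risen over all genes. Contractile, YAP and focal adhesion lists have the longest bars on the left, and the NRF2 and aryl hydrocarbon receptor lists on the right.

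Guidance and cell adhesion genes, first known from axons and also expressed by mesenchymal cells, moved in both directions. Of 28 semaphorins, plexins and neuropilins 4 rose and 5 fell (32.1%, against 5.66% of all genes). Sema3d was at 124, 102 and 100.2 CPM in DMSO and 54.8, 56.3 and 67.1 CPM with riociguat (-0.87 ± 0.09, adjusted p = 5.23e-06), without overlap, and Sema6d fell by 0.39 ± 0.04, while Sema4c rose by 0.33 ± 0.07. Without DMSO replicate 2 or 3, 1 of the family rose and 4 fell, without riociguat replicate 1 or 2, 3 and 2 rose and 3 fell, and without riociguat replicate 3, 2 rose and 5 fell. The Sema4c call ended without DMSO replicate 2 (adjusted p up to 0.0647). Robo2, a receptor of slit proteins, was at 679.9, 645 and 670.0 CPM in DMSO and 425, 412 and 451 CPM with riociguat (-0.63 ± 0.05, adjusted p = 1.91e-07), and the ligand gene Slit2 fell by 0.46 ± 0.12, a call that ended without DMSO replicate 1 or 3 or riociguat replicate 1 or 3 (adjusted p up to 0.14). Rgma fell by 0.61 ± 0.09 and its receptor gene Neo1 rose by 0.28 ± 0.04, both without overlap. Ntm, a neural adhesion molecule, rose by 0.58 ± 0.11, and Pcdh18, a protocadherin, fell by 1.05 ± 0.10, from 31.2, 33.7 and 28.5 to 15.5, 13.9 and 15.9 CPM. Anxa1, an annexin that limits inflammation, fell by 0.84 ± 0.06, from 264, 289.6 and 269 to 148, 153 and 157 CPM. Reln, which encodes reelin and marks stellate cells in the liver, was at 1371, 1377 and 1352 CPM in DMSO and 1618, 1555 and 1607 CPM with riociguat (0.22 ± 0.04).

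Of 1851 tested genes that are not protein-coding 15 rose and 10 fell (1.35%, against 5.66% of all genes). Gm17501, a long intergenic RNA, lies at chromosome 3, 145650312 to 145677580 (GRCm38, plus strand). It begins 331 bases from the start of Ccn1, which is on the other strand. It fell by 1.37 ± 0.16, and Ccn1 fell by 1.14 ± 0.06. Hand2os1 overlaps Hand2 on the other strand and rose by 0.74 ± 0.10, while Hand2, a transcription factor of stellate cells, had a log2 fold change of 0.32 ± 0.10 that did not pass (adjusted p = 0.0875). The sources used here do not say how the counting treated strands, so reads of such a pair cannot be told apart. Neat1, the RNA of paraspeckles, rose by 0.39 ± 0.07. Counts in the family of Zfp zinc finger genes moved with DMSO replicate 1. With all libraries 5 of 355 rose and 1 fell (1.69%, against 5.66% of all genes). Without DMSO replicate 1, 43 rose and 2 fell, where 3.84% and 3.82% of all genes did. With offsets adjusted for GC content 8 rose and 1 fell, where 2.75% and 3.75% of all genes did. In that library 175 of the 355 were higher than in both other DMSO libraries, as were 33.6% of all genes. Those of mitochondrial DNA genes moved with the same library, with 0 of 13 called with all libraries and 8 risen without it. Without it 3.84% of all genes rose. The 13 genes summed to 44630 CPM in DMSO replicate 1 and to 29632 and 25773 CPM in replicates 2 and 3. With riociguat they summed to 34269, 46298 and 37888 CPM.

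The riociguat libraries after 6 h show levels after a shorter exposure that began later, not an earlier stage of culture. Between 6 and 12 h of riociguat, a comparison that needs no DMSO library, 976 genes differed (6.09% of those tested). The time of addition relative to the medium change differed too, being 18 h after it for the 6 h group. Thbs1 was at 2082, 1692 and 2116 CPM after 6 h, close to its DMSO levels given above, and was lower by 1.48 ± 0.09 at 12 h than at 6 h (adjusted p = 8.31e-08). Ccn2 was at 1315, 1066 and 1256 CPM after 6 h and was likewise lower at 12 h, by 1.37 ± 0.09 (adjusted p = 1.65e-07). Some rises also separated 12 h from 6 h. Disp2 differed by 1.0 ± 0.07 (adjusted p = 1.89e-07), Spon2 by 0.92 ± 0.09, Pde1a by 0.76 ± 0.07 and Bmp2 by 0.75 ± 0.05, with Bmp2 at 76.6, 82.6 and 74.5 CPM after 6 h. In each of these genes the 12 h level differed more from 6 h than from DMSO, so the fitted 6 h level lay below DMSO. The gap was widest for Pde1a, which rose by only 0.44 against DMSO.

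Other genes had 6 h levels whose difference from 12 h did not pass. Il11 was at 34.99, 30.4 and 34.3 CPM after 6 h, 0.17 ± 0.10 from its 12 h level (adjusted p = 0.389), Mrvi1 at 25.01, 27.5 and 27.5 CPM (-0.02 ± 0.08, adjusted p = 0.94) and Pde7b at 45.1, 41.3 and 48.1 CPM (0.01 ± 0.07, adjusted p = 0.975). Kcne4 (0.03 ± 0.09) and Alpl (-0.06 ± 0.08) had small differences as well. Cyp1a1 and Gclc were higher at 6 h than at 12 h. Cyp1a1 was at 1324, 1294 and 1313 CPM after 6 h and differed by -0.64 ± 0.05 at 12 h (adjusted p = 1.02e-06), and Gclc by -0.36 ± 0.05 (adjusted p = 7.98e-05). Between 12 and 24 h of riociguat 494 genes differed (3.08% of those tested), with addition at the medium change in the 24 h group. Culture time up to the end of exposure was again equal. After 24 h Bmp10 was at 72.1, 63.4 and 82.1 CPM, Npr3 at 48.3, 53.5 and 57.7 CPM and Kcnj8 at 42.96, 43.9 and 36.9 CPM. The first 2 were thus above their 12 h levels, by 0.76 ± 0.09 and 0.66 ± 0.08 on the log2 scale (adjusted p = 0.000118 and 0.000118), and Kcnj8 by 0.52 ± 0.10 (adjusted p = 0.00737).

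**Figure D5:**
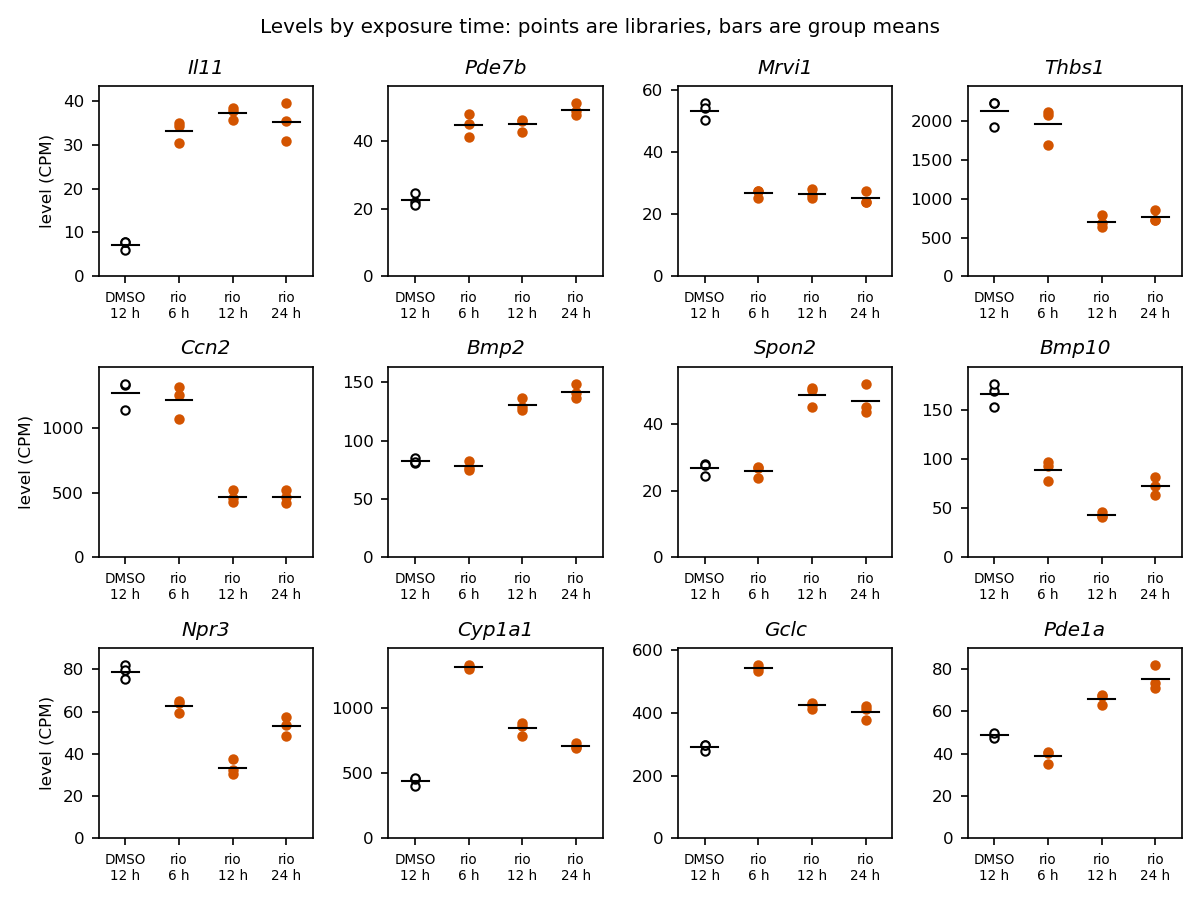
Levels of 12 genes (CPM, axes starting at 0) in DMSO 12 h (open points) and after 6, 12 and 24 h of riociguat (filled points), with 1 point per library and bars at the group means. Thbs1 and Ccn2 are near their DMSO levels after 6 h and low at 12 and 24 h, whereas Il11, Pde7b and Mrvi1 are at similar levels in all riociguat groups.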

How the data were processed

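RNA-seq of 12 libraries was used as 1 table of expected counts per gene, deposited by the authors. FastQC, fastp, Salmon and DESeq2 are named in the submitters' processing notes, with GRCm38 as the genome build. The sources used here do not say how these tools were set. All deposited values were whole numbers, and no further scaling was applied to them.

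Genes with enough counts (edgeR's filterByExpr) were fitted over all 12 libraries with group as the only term, TMM factors and edgeR's quasi-likelihood test (edgeR 4.0.16, limma 3.58.1, R 4.3.3), with Benjamini-Hochberg adjustment over the 16036 genes tested and a threshold of 0.05. The fit was tested on simulated data, where it recovered a smaller share of changed genes than first aimed for, mainly at low levels, the limit was then replaced, and the share of false calls was above the nominal level, so the threshold may be somewhat lenient. Levels are CPM with TMM factors. Alternatives were RLE factors, no low-count filter, the 6 libraries alone, DESeq2 1.42.0, the replicate number as a block, each library left out, and GC-adjusted offsets. Symbols were matched for 53355 of 53452 genes and positions for 53423 (GENCODE, GRCm38). Promoters from RefSeq (GRCm38.p6) were found for 11627 of the tested genes.

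Genes were named by rule: the 20 risen and 20 fallen with the largest fold changes among called genes of at least 5 CPM whose groups do not overlap, up to 4 called members with the smallest p in each list or family with at least 3 called, and 13 genes whatever their p. The comparison, lists and families were chosen with earlier results of these data known. These genes were named after their values were seen: Abcc1, Adra1b, Aldh1a1, Anln, Bambi, Bmp4, Cd44, Col5a2, Col6a1, Col6a2, Col6a3, Crem, Cxcl12, Cxcl14, Ednra, Ednrb, Eng, F3, Fstl1, Fstl3, Gclm, Gdf10, Gdf2, Gja1, Gja4, Gm17501, Hand2, Hmox1, Hspg2, Htr2a, Ifi47, Il1r1, Il1rap, Itpr1, Kcnmb1, Lama1, Lims1, Mmp10, Mmp13, Mt1, Mt2, Neat1, Nfe2l2, Nid2, Nt5e, P2ry14, Parva, Pde3a, Pde4a, Pde4d, Pkig, Plau, Postn, Ppp1r12b, Prdx1, Prkar2a, Rpl10, Rspo3, S1pr1, Slit2, Socs3, Spred1, Srf, Stab1, Stat3, Stim1, Tgfb2, Tgfbi and Vcl. Some genes and lists are not reported here.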

Additional observations from a re-analysis of the deposited data

How the results depend on the processing

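With all libraries 907 genes changed, 349 rose, 558 fell, and 52 moved by at least 1 on the log2 scale. RLE factors, DESeq2, a fit of only the 6 libraries and GC-adjusted offsets, the last chosen after seeing the data, kept these 4 counts within 1.5 times. With no low-count filter 689 rose and 121 were large. With 1 library left out, 510 to 1262 changed, 204 to 633 rose, 299 to 629 fell and 27 to 112 were large. The highest values came without DMSO replicate 1 and the lowest total without riociguat replicate 2. DMSO replicate 2 (564 changed) and DMSO replicate 3 (567) also moved the total by over 1.5 times. Deviations of same-numbered libraries correlated at -0.136, -0.0142 and -0.0487, and those of other pairs at -0.0546 to 0.0978. No library correlated best with its own number. Deviations within a group of 3 libraries depend on each other, so these values cannot decide whether replicate numbers pair the samples. With the number as a replicate block 793 changed, and in the 6 libraries with that block 512 changed, 186 rose and 326 fell. That last fit lost the calls of 45 genes named by rule, and alone ended those of Tnfrsf1a, Col6a3, Loxl2, Fth1 and Dusp6 (adjusted p = 0.0827, 0.0537, 0.0501, 0.149 and 0.0536). None of the named genes that passed the test reversed its sign. Among the 223 genes named by rule, the number whose call was lost was highest without riociguat replicate 2, at 46, and lowest with RLE factors or DESeq2, at 1 each. Depth limits what can be said of low genes such as Kcnj2 and Tbxas1, and a gene that misses the threshold at 3 libraries a group is not shown to be unchanged.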
